A study of Mus musculus with 8 samples.

Results

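The integrated stress response regulators described here are 10 genes that act downstream of the phosphorylation of translation factor eIF2: the transcription factor genes *Atf5*, *Ddit3*, *Atf3*, *Cebpb* and *Nupr1*, the feedback genes *Trib3* and *Ppp1r15a*, and the effector genes *Chac1*, *Ddit4* and *Sesn2*. They were taken by gene symbol from a table of raw read counts for 24411 mouse genes. All 10 were present, and all 10 were among the 13633 genes with enough reads to be tested. The counts came from the livers of neonatal *hUGT1* mice, which carry the human *UGT1* locus in place of their own. In *hUGT1/Atf4F/F* mice both alleles of *Atf4* are floxed and intact, and in *hUGT1/Atf4ΔHep* mice a Cre recombinase under the albumin promoter deletes *Atf4* in hepatocytes, while the other cells of the liver keep it. Each genotype received either vehicle or triclosan (TCS), an antimicrobial agent, by mouth at 50 mg/kg on 4 consecutive days. The age of the mice was given as 14 days in the sequencing methods and as 10 days at the first dose elsewhere. Each of the 4 groups had 2 libraries, and each library held the pooled RNA of 2 mice, so that the P values below rest on the spread between pools of 1 group, taken over all 4 groups. The comparisons asked how the deletion of *Atf4* and the administration of TCS bore on these regulators in the neonatal liver.

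In the integrated stress response, 1 of several kinases senses a stress such as unfolded protein, lack of amino acids, lack of heme or viral RNA and phosphorylates eIF2. General translation then slows, while messages with upstream open reading frames, such as those of *Atf4* and *Atf5*, are translated better. ATF4 binds DNA with a C/EBP partner and activates genes of amino acid supply along with the regulators described here. Some of these regulators end the response: *Ppp1r15a* encodes GADD34, which brings a phosphatase back to eIF2, and *Trib3* encodes a pseudokinase that restrains ATF4. Others carry a long response further, such as *Ddit3*, which encodes CHOP.

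ATF4 and C/EBP proteins bind a composite element, TGATGNAA, which was searched on both strands of promoter windows from RefSeq (GRCm38.p6) that ran from 250 bases before to 50 bases after each start site. All 10 regulators had a window, and those of *Trib3*, *Chac1*, *Atf3* and *Nupr1* held the element, that is 4 of 10 genes, against 3.97% of all 32851 windows and 2.30% of the windows of tested genes. The windows of the other 6 regulators, including both start sites of *Atf5*, did not hold these letters, which says nothing of sites elsewhere. The 8-letter cyclic AMP element TGACGTCA was found in the window of *Ppp1r15a*, and in 1.79% of all windows. The matches of the 4 genes are shown here as a description, and a link between the element and the levels given below was not tested. Each run reads 5′ to 3′ on the strand of the gene, and the capitals mark the element, which in all 4 genes lay on the opposite strand and so reads as its reverse complement.
*Trib3*, chr2:152344028-152344057, minus strand: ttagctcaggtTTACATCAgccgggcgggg
*Chac1*, chr2:119350993-119351112, plus strand: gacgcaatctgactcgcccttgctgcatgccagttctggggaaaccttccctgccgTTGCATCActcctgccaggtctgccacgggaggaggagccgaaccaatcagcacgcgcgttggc
*Atf3*, chr1:191183380-191183499, minus strand: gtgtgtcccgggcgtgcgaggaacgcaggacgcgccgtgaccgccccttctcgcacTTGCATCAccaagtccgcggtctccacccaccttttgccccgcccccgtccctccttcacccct
*Nupr1*, chr7:126625517-126625636, minus strand: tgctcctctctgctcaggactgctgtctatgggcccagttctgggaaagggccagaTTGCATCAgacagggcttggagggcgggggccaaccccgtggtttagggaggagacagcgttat
The match began 193 bases before the RefSeq start site in *Chac1* and 110 bases before it in both *Atf3* and *Nupr1*, and 14 bases after it in *Trib3*. A match describes the letters of a window and was not tested as a binding site in these livers.

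Depth ranged from 11624143 to 25573210 counts per library, and levels are given as CPM, the count of a gene scaled to the TMM-adjusted size of its library. The deletion was visible in every library. *Atf4* (chr15:80255184-80257541) stood at 59.5 and 62.8 CPM in vehicle-treated *Atf4F/F* livers and at 58.6 and 59.8 CPM after TCS. The *Atf4ΔHep* livers had 18.5 and 19.7 CPM under vehicle and 17.5 and 17.4 CPM after TCS. All 4 *Atf4ΔHep* libraries thus lay below all 4 *Atf4F/F* libraries, with a mean log2 difference of -1.72 (SE 0.05, edgeR adjusted P = 1.68e-06). Whether the remaining RNA came from cells without Cre or from hepatocytes cannot be told apart. The defining hepatocyte markers were high in every library, with a summed level of 132958 to 162868 CPM over the 7 markers in the table. In such bulk samples, fewer cells of a type and less RNA per cell cannot be told apart.

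The regulators differed widely in level when read per kilobase of exon. *Atf5* had a mean of 249 CPM per kilobase over the 8 libraries, with a range of 197 to 299. *Cebpb* followed with 20.5 CPM per kilobase (17.2 to 24.2). *Atf4* had 24.9 to 26.6 CPM per kilobase in *Atf4F/F* libraries and 7.37 to 8.36 in *Atf4ΔHep* libraries, so that *Cebpb* lay between these ranges. The ranges of *Atf5* and *Cebpb* did not touch that of another regulator, so both genes stood apart from the rest and from each other.
The order then ran from *Ppp1r15a* (3.85 CPM per kilobase) through *Sesn2* (3.52), *Ddit4* (3.004), *Ddit3* (2.60), *Trib3* (1.66), *Chac1* (1.15) and *Atf3* (0.546) to *Nupr1* (0.542), and the ranges of all neighbours in this part of the order overlapped. The 3 lowest regulators rested on few reads. *Nupr1* had 7 to 47 counts per library, *Atf3* had 9 to 32, and *Chac1* had 19 to 44, whereas *Atf5* had 4615 to 11737. Differences in the low genes are therefore known with much less precision than those in *Atf5*.

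**Figure D1:**
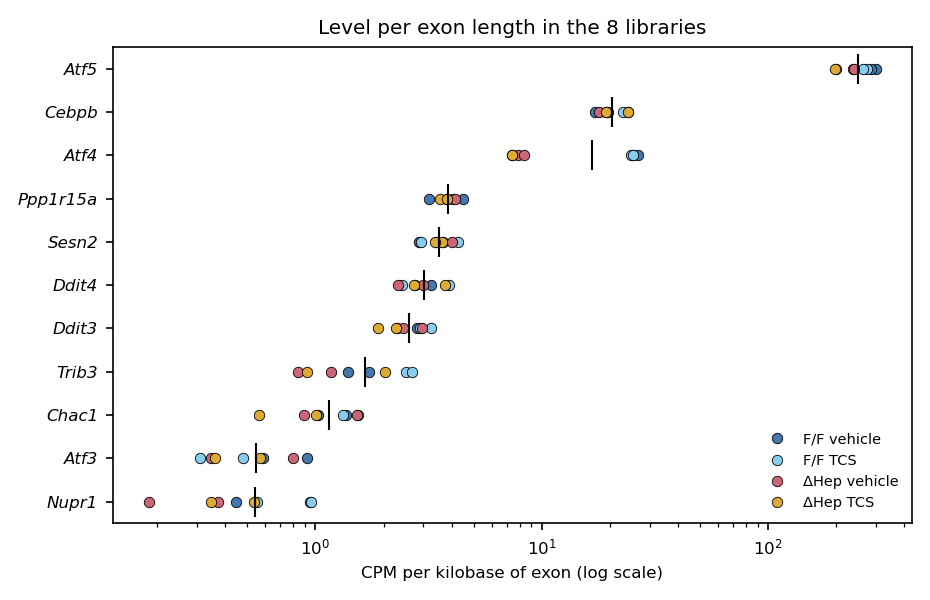
Level of each regulator and of *Atf4* in CPM per kilobase of exon (x axis, log scale), with 1 point per library coloured by group and a vertical tick at the mean of the 8 libraries. *Atf5* (197 to 299) and *Cebpb* (17.2 to 24.2) lie apart from the other regulators, whose ranges overlap from neighbour to neighbour.

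*Atf5* (chr7:44812256-44816658, minus strand) encodes a bZIP factor that is close kin of ATF4, is abundant in liver and is known for activating mitochondrial stress genes. It was the regulator with the clearest difference. In *Atf4F/F* livers it had 595 and 567 CPM under vehicle and 544 and 522 CPM after TCS. In *Atf4ΔHep* livers it had 472 and 476 CPM under vehicle and 399 and 393 CPM after TCS. All 4 *Atf4ΔHep* libraries were below all 4 *Atf4F/F* libraries, and within each genotype both TCS libraries were below both vehicle libraries.
The group means fell in the order *Atf4F/F* vehicle (581 ± 19.5, SD, n = 2), *Atf4F/F* TCS (533 ± 15.8), *Atf4ΔHep* vehicle (474 ± 3.14) and *Atf4ΔHep* TCS (396 ± 4.44), with no overlap between any neighbours. Averaged over treatments, *Atf5* fell by 0.36 on the log2 scale with the deletion (SE 0.04, 95% interval -0.46 to -0.27, unadjusted P = 1.34e-05, edgeR adjusted P = 0.0366), a level 0.778 times that of *Atf4F/F* livers.

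*Atf5* was 1 of 6 genes called at an adjusted P under 0.05 in that comparison (0.0440% of the genes tested), and 1 of 3 called lower (0.0220%). The 4 against 4 libraries did not overlap, in the lower direction, for 1.01% of all genes and for *Atf5* alone among the 10 regulators. The log2 difference was -0.34 to -0.38 whichever library was left out, but its call was lost each time. Without any 1 of the 8 libraries the edgeR adjusted P rose to between 0.0741 and 0.371. It was 0.0531 with the male share of each pool as a covariate and 0.0965 with the replicate number as a block. DESeq2 called *Atf5* (adjusted P = 5.60e-10) and 0.0658% of the 18227 genes to which it gave an adjusted P. Here and below, shares of all genes called by DESeq2 refer to the genes with its adjusted P, 6080 to 18227 by comparison. A gene without one could not be called.
The hepatocyte markers had a median log2 difference of -0.02 between the genotypes over 7 genes.

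Within each treatment the *Atf5* difference was -0.29 under vehicle (SE 0.06, unadjusted P = 0.0008, edgeR adjusted P = 1.00) and -0.43 under TCS (SE 0.06, unadjusted P = 0.0001, edgeR adjusted P = 0.146). Under TCS the call was made by DESeq2 (adjusted P = 3.19e-06) and without a filter on low counts (edgeR adjusted P = 0.0452). The difference between these values, -0.13 (SE 0.08), did not pass the test of the interaction (unadjusted P = 0.142, edgeR adjusted P = 1.00).
TCS itself came with a log2 change of -0.12 in *Atf4F/F* livers (SE 0.06, unadjusted P = 0.0636) and of -0.26 in *Atf4ΔHep* livers (SE 0.06, unadjusted P = 0.0019, edgeR adjusted P = 0.125). Averaged over genotypes it was -0.19 (SE 0.04, edgeR adjusted P = 0.0517), just outside the threshold, and DESeq2 gave an adjusted P of 0.0045.
Hepatocyte markers were also lower after TCS, with 7 of 7 below 0 and a median of -0.15 averaged over genotypes, and the part of this shift in the *Atf5* values was not tested. The gene overlaps *Nup62* on the other strand by 82 exon bases. *Nup62* stood at only 17.6 to 19.95 CPM.

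**Figure D2:**
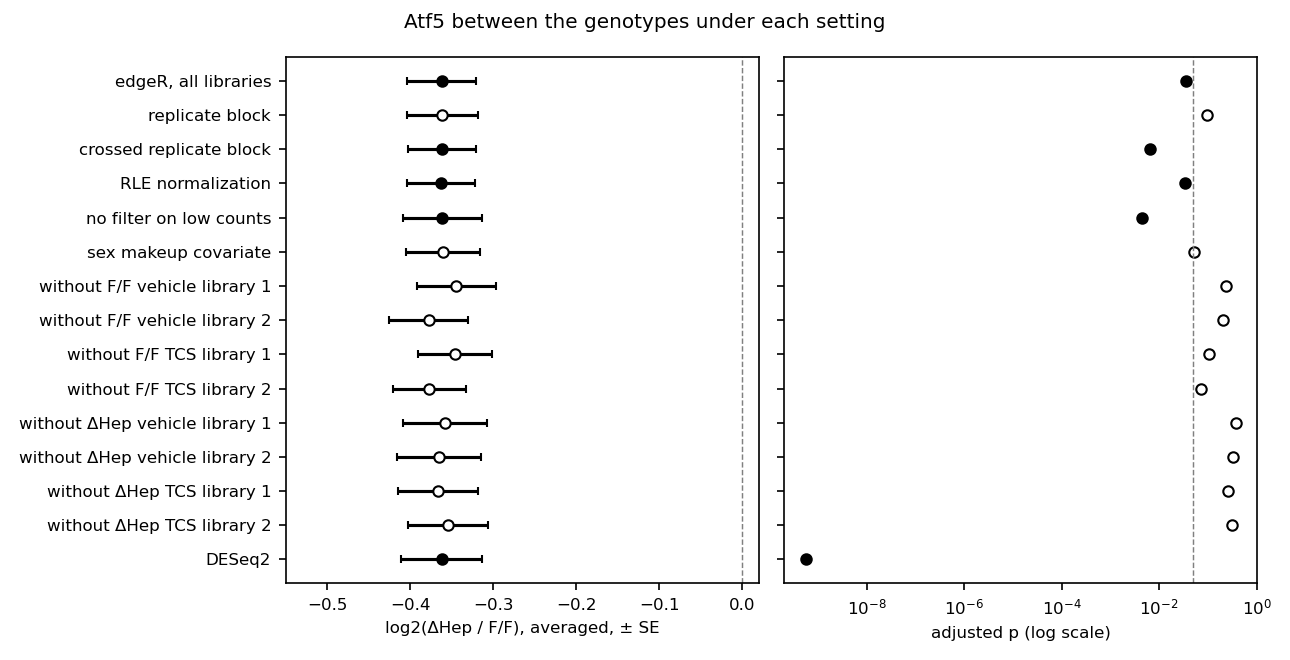
Difference in *Atf5* between *Atf4ΔHep* and *Atf4F/F* livers averaged over treatments (left, log2 fold change with SE) and its adjusted P (right, log scale, dashed line at 0.05) under each setting of the analysis, with filled points for adjusted P under 0.05. The log2 difference stays between -0.34 and -0.38 in every row, while the adjusted P lies above 0.05 whenever a library is left out.

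*Ddit3* (chr10:127290774-127296288) encodes CHOP, a bZIP factor known for its part in cell death after prolonged stress in the endoplasmic reticulum. Its level was 4.82 and 3.94 CPM in vehicle-treated *Atf4F/F* livers and 5.56 and 4.98 CPM after TCS. In *Atf4ΔHep* livers it was 5.05 and 4.17 CPM under vehicle and 3.89 and 3.22 CPM after TCS. Both TCS libraries were thus above both vehicle libraries in *Atf4F/F* livers and below them in *Atf4ΔHep* livers.
The log2 change with TCS was 0.26 in *Atf4F/F* (SE 0.21, unadjusted P = 0.246) and -0.39 in *Atf4ΔHep* (SE 0.22, unadjusted P = 0.107), so that neither passed the test. The interaction was -0.65 (SE 0.30, 95% interval -1.34 to 0.03, unadjusted P = 0.0602, edgeR adjusted P = 1.00). Under vehicle the genotypes differed by 0.07 (SE 0.21), and under TCS by -0.58 (SE 0.21, unadjusted P = 0.0246, edgeR adjusted P = 1.00), with no overlap between the libraries.
Exons of *Ddit3* share 68 bases with *Mars* on the other strand, a gene at 33.6 to 56.6 CPM, and the sources used here do not state whether reads were counted by strand.

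*Atf3* (chr1:191170296-191218039, minus strand) encodes a bZIP factor that is also an early response gene. It had 1.27 and 1.97 CPM in vehicle-treated *Atf4F/F* livers and 0.664 and 1.03 CPM after TCS. The *Atf4ΔHep* livers had 0.748 and 1.72 CPM under vehicle and 0.779 and 1.23 CPM after TCS. Both TCS-treated libraries of each genotype were below both libraries of vehicle-treated *Atf4F/F* livers, and the other groups overlapped.
*Atf3* differed between the genotypes by -0.05 averaged over treatments (SE 0.36) and with TCS by -0.58 averaged over genotypes (SE 0.36, unadjusted P = 0.145). The summed level of 16 immediate early genes ranged from 237 to 360 CPM over the libraries, and in 3 of the 4 groups the library with more *Atf3* also had the higher sum. The part of such early genes in the *Atf3* values was not tested.

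*Cebpb* (chr2:167688915-167690418) encodes C/EBPβ, a bZIP factor of liver and a partner of ATF4. Its level was 25.9 and 36.0 CPM in vehicle-treated *Atf4F/F* livers and 29.0 and 34.5 CPM after TCS. In *Atf4ΔHep* livers it was 29.6 and 26.8 CPM under vehicle and 28.8 and 36.3 CPM after TCS. The vehicle-treated *Atf4F/F* libraries alone spanned all the others but the highest, and the groups overlapped.
The difference between genotypes was -0.04 averaged over treatments (SE 0.12, 95% interval -0.32 to 0.24), and that with TCS was 0.13 (SE 0.12, -0.15 to 0.41). *Cebpb* shares 312 exon bases with *Tmem189* on the other strand, which stood at 14.5 to 19.9 CPM.

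*Nupr1* (chr7:126623249-126630861, minus strand) encodes a small nuclear protein induced by many stresses. It had 2.38 and 1.12 CPM in vehicle-treated *Atf4F/F* livers and 1.39 and 2.40 CPM after TCS. The *Atf4ΔHep* livers had 0.935 and 0.463 CPM under vehicle and 0.865 and 1.34 CPM after TCS. The libraries did not overlap between genotypes within either treatment, with the *Atf4ΔHep* ones lower, but they overlapped over all 8.
*Nupr1* differed by -1.03 with the deletion averaged over treatments (SE 0.37, 95% interval -1.88 to -0.18, unadjusted P = 0.0229, edgeR adjusted P = 1.00). The value was -1.33 under vehicle (SE 0.55, unadjusted P = 0.0389) and -0.73 under TCS (SE 0.51, unadjusted P = 0.186). Its value for TCS was 0.40 averaged over genotypes (SE 0.37) and -0.12 with the male share of each pool as a covariate.

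*Trib3* (chr2:152337422-152344032, minus strand) encodes the pseudokinase that binds ATF4 and AKT. Its level was 3.65 and 2.95 CPM in vehicle-treated *Atf4F/F* livers and 5.31 and 5.66 CPM after TCS. In *Atf4ΔHep* livers it was 2.49 and 1.79 CPM under vehicle and 4.33 and 1.96 CPM after TCS. The TCS-treated *Atf4F/F* libraries were the 2 highest of the 8, and within each treatment both *Atf4ΔHep* libraries were below both *Atf4F/F* libraries.
Averaged over treatments, *Trib3* differed by -0.75 between the genotypes (SE 0.26, 95% interval -1.34 to -0.16, unadjusted P = 0.0181, edgeR adjusted P = 1.00). The value was -0.63 under vehicle (SE 0.37) and -0.87 under TCS (SE 0.36, unadjusted P = 0.0375).
With TCS, *Trib3* had a log2 change of 0.73 in *Atf4F/F* (SE 0.35, unadjusted P = 0.0679) and of 0.48 in *Atf4ΔHep* (SE 0.38, unadjusted P = 0.239). The average over genotypes was 0.60 (SE 0.26, unadjusted P = 0.0449, edgeR adjusted P = 0.279). The TCS-treated *Atf4ΔHep* libraries lay far apart, and without the higher one the change in *Atf4ΔHep* was -0.13.

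*Ppp1r15a* (chr7:45522916-45526268, minus strand) encodes GADD34, the stress-induced subunit that directs a phosphatase to eIF2. It had 9.33 and 13.1 CPM in vehicle-treated *Atf4F/F* livers and 11.9 and 11.2 CPM after TCS. The *Atf4ΔHep* livers had 11.2 and 12.1 CPM under vehicle and 10.5 and 11.2 CPM after TCS. The vehicle-treated *Atf4F/F* libraries spanned the range of all the others.
Its difference was -0.01 with the deletion (SE 0.12, 95% interval -0.27 to 0.25) and -0.03 with TCS (SE 0.12, -0.29 to 0.24), each averaged over the other factor. As linear fold changes, both intervals lay between 0.819 and 1.19.

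Among the effector genes, *Chac1* (chr2:119351229-119354381) encodes an enzyme that degrades glutathione. It had 1.67 and 2.23 CPM in vehicle-treated *Atf4F/F* livers and 2.17 and 2.52 CPM after TCS. The *Atf4ΔHep* livers had 2.49 and 1.46 CPM under vehicle and 1.64 and 0.921 CPM after TCS. The genotypes overlapped under vehicle and did not overlap under TCS.
The corresponding log2 differences were 0.03 under vehicle (SE 0.40) and -0.93 under TCS (SE 0.41, unadjusted P = 0.0486, edgeR adjusted P = 1.00). The interaction was -0.96 (SE 0.57, unadjusted P = 0.126), so that the values under vehicle and TCS were not shown to differ.

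*Ddit4* (chr10:59949669-59951834, minus strand) encodes REDD1, and *Sesn2* (chr4:132492032-132510501, minus strand) encodes sestrin 2, both inhibitors of the growth kinase mTORC1. *Ddit4* had 4.82 and 5.71 CPM in vehicle-treated *Atf4F/F* livers, 6.82 and 4.23 after TCS, 4.05 and 5.23 CPM in vehicle-treated *Atf4ΔHep* livers and 4.76 and 6.56 after TCS. *Sesn2* had 9.94 and 12.7 CPM in vehicle-treated *Atf4F/F* livers, 14.9 and 10.1 after TCS, 11.9 and 13.9 CPM in vehicle-treated *Atf4ΔHep* livers and 12.6 and 11.8 after TCS. For both genes the 2 libraries of the TCS-treated *Atf4F/F* group spanned all but 1 of the other libraries.
The deletion averaged over treatments came with -0.06 for *Ddit4* (SE 0.19) and 0.08 for *Sesn2* (SE 0.14), and TCS averaged over genotypes with 0.19 (SE 0.19) and 0.03 (SE 0.14). Left-out libraries turned the sign of either deletion value (-0.21 to 0.13 for *Ddit4* and -0.049 to 0.23 for *Sesn2*).

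**Figure D3:**
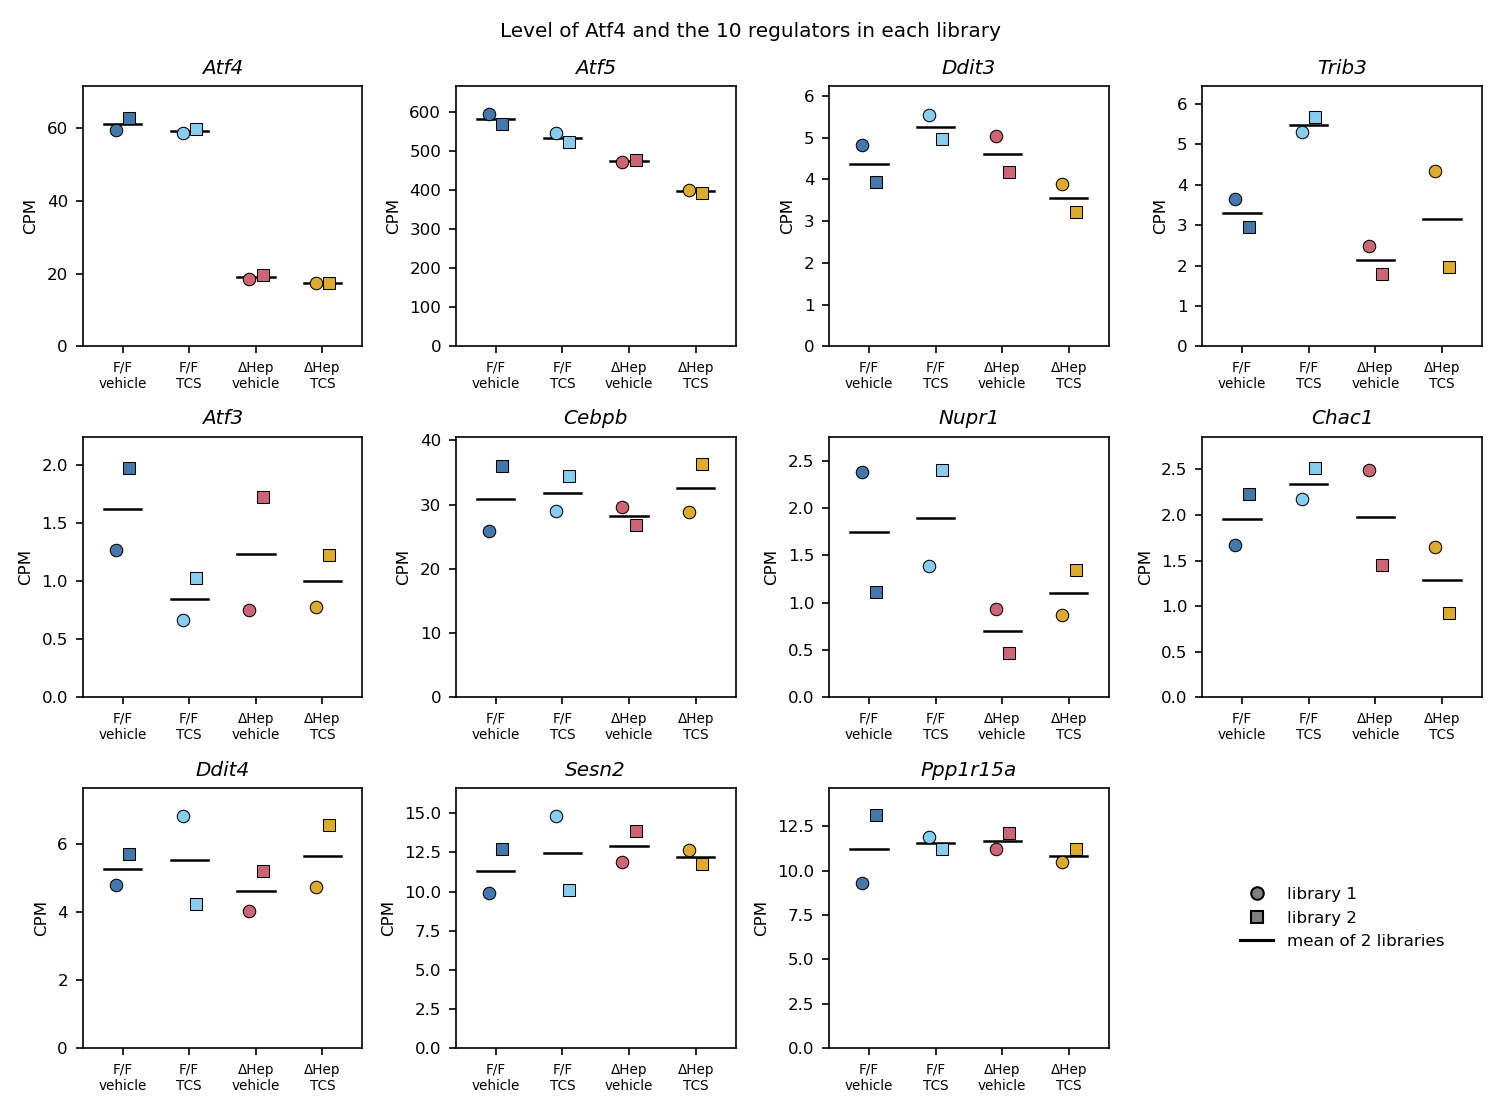
Level of *Atf4* and of each regulator in CPM (y axes start at 0) in each of the 8 libraries, with circles for library 1, squares for library 2 and a bar at the mean of 2 libraries. *Atf5* steps down from 581 to 396 across the groups, both TCS libraries of *Ddit3* lie above the vehicle libraries in *Atf4F/F* and below them in *Atf4ΔHep* livers without passing a test, and the libraries of *Ddit4* and *Sesn2* scatter as widely as their groups. Those of *Atf3* lie lower after TCS in *Atf4F/F* livers and overlap between treatments in *Atf4ΔHep* livers, also without passing a test.

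Read together over the deletion, 9 of the 10 regulators had a log2 difference below 0 in the average over treatments, with a median of -0.16 against 0.00 for all genes tested, of which 50.4% were below 0. The count depended on single libraries: it was 5 without vehicle-treated *Atf4F/F* library 2 or TCS-treated *Atf4ΔHep* library 1, 6 without vehicle-treated *Atf4ΔHep* library 1, and 7 to 10 without any other, while the median stayed at -0.15 to -0.25. At an unadjusted P under 0.05, 3 regulators were lower (*Atf5*, *Nupr1* and *Trib3*) and 0 higher, where 3.89% of all genes reached this level and 2.07% did so in the lower direction. Under vehicle alone edgeR called 0 regulators and 0.0220% of all genes, and DESeq2 called 0 regulators and 0.0274% of all genes. There 2 regulators were lower at an unadjusted P under 0.05 (*Atf5* and *Nupr1*) against 2.87% of all genes in either direction, and for 3 regulators (*Atf5*, *Nupr1* and *Trib3*) both *Atf4ΔHep* libraries were below both *Atf4F/F* libraries, against 14.9% of all genes. Under TCS edgeR again called 0 regulators and 0.0220% of all genes, and DESeq2 called *Atf5* and 0.0384% of all genes.
At an unadjusted P under 0.05, 4 regulators were lower under TCS (*Atf5*, *Ddit3*, *Trib3* and *Chac1*) against 3.16% of all genes in either direction. For 6 regulators the *Atf4ΔHep* libraries did not overlap and were lower, against 15.3% of all genes, the others being *Nupr1* and, by a margin below the printed digits, *Ppp1r15a*. The median over the regulators was -0.15 under vehicle and -0.26 under TCS. The erythroid markers, of which 4 were tested, also had lower values in *Atf4ΔHep* livers, with a median of -0.14 under vehicle (3 of 4 below 0), -0.56 under TCS (4 of 4) and -0.38 in the average (4 of 4, with 1 at an unadjusted P under 0.05 and 0 called by edgeR or DESeq2). The summed level of the 6 erythroid markers in the table was 38.8 to 66.1 CPM in *Atf4F/F* and 35.3 to 52.3 CPM in *Atf4ΔHep* libraries, with *Hbb-bt* and *Hba-a1* listed at 0 in every library, and its part in the values of the regulators was not tested. In the average, 5 of 7 stellate cell, 5 of 6 endothelial and 5 of 5 cholangiocyte markers were also below 0 (medians -0.09, -0.09 and -0.06). Markers of Kupffer cells and macrophages, neutrophils and lymphocytes were mostly above 0 (6 of 7, 5 of 7 and 4 of 6). None of these was called by edgeR or DESeq2, and their part was not tested either.

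**Figure D4:**
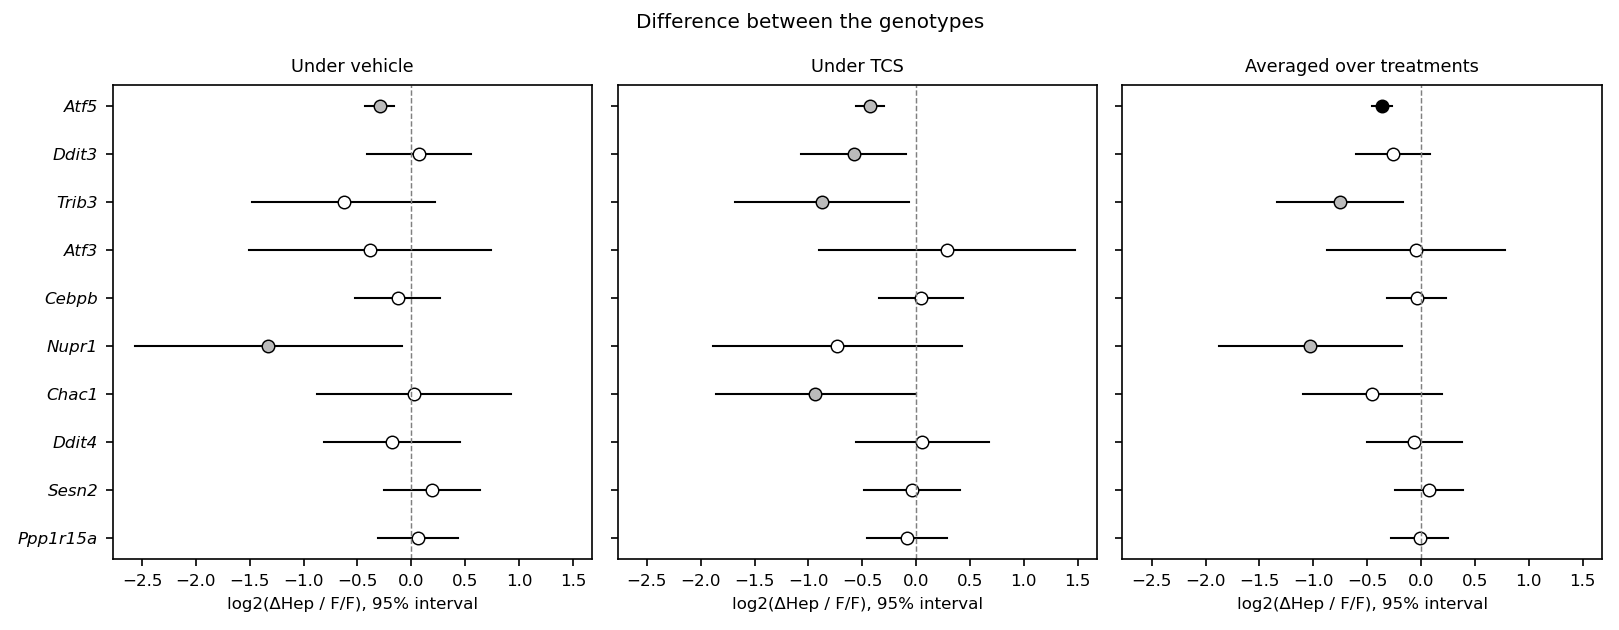
Log2 fold change of each regulator between *Atf4ΔHep* and *Atf4F/F* livers under vehicle, under TCS and averaged over both (x axes), with 95% intervals. Black points have an edgeR adjusted P under 0.05, grey points an unadjusted P under 0.05 and white points neither. *Atf5* has the narrowest interval and is the only black point, and the low-count genes *Nupr1*, *Atf3* and *Chac1* have the widest intervals.

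The same counts were made for TCS. In *Atf4F/F* livers edgeR and DESeq2 called 0 regulators. EdgeR called 0.557% of the genes tested, and DESeq2 called 2.91% of the 6080 genes with its adjusted P. A regulator outside these 6080 genes could not be called by DESeq2, so its count of 0 says nothing of such genes. At an unadjusted P under 0.05 there were also 0 regulators, against 9.73% of all genes, and 4 regulators had libraries that did not overlap (*Ddit3* and *Trib3* higher, *Atf3* and *Atf5* lower), against 38.7% of all genes. In *Atf4ΔHep* livers edgeR called 0 regulators and 0.675% of all genes, and DESeq2 called *Atf5* and 2.17% of the 10592 genes with its adjusted P. *Trib3* had no DESeq2 adjusted P there and could not be called by it. DESeq2 leaves genes with low mean counts without an adjusted P. *Chac1*, *Nupr1* and *Atf3* had fewer counts over the 8 libraries than *Trib3* (252, 196 and 163 against 472). The DESeq2 count therefore says little of these genes. *Atf5* was also the only regulator at an unadjusted P under 0.05, against 11.5% of all genes.
For 3 regulators (*Atf5*, *Ddit3* and *Ppp1r15a*, all lower) the TCS libraries did not overlap the vehicle libraries of *Atf4ΔHep* livers, against 43.0% of all genes. For *Ppp1r15a* the margin was again below the printed digits (log2 change -0.10, SE 0.16). Averaged over genotypes, edgeR called 0 regulators and 2.59% of all genes, and DESeq2 called *Atf5* and 3.37% of all genes. At an unadjusted P under 0.05, *Trib3* was higher and *Atf5* lower, 2 of 10 regulators against 17.2% of all genes, and 0 regulators had 4 libraries that did not overlap the other 4, against 12.0% of all genes. The median over the regulators was 0.09 in *Atf4F/F* livers, -0.09 in *Atf4ΔHep* livers and 0.00 in the average. The counts by edgeR were close to the shares among all genes or below them.
For the interaction edgeR called 0 regulators and 0% of all genes, DESeq2 called 0 regulators and 0% of all genes, and 0 regulators reached an unadjusted P under 0.05, against 2.07% of all genes.

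Pools and cell type markers also differed with TCS. Both TCS-treated *Atf4F/F* pools had high *Xist* (718 and 758 CPM), whereas both vehicle-treated *Atf4F/F* pools had little (23.2 and 1.05 CPM), so that sex makeup and TCS cannot be told apart in that genotype alone. The *Atf4ΔHep* pools had 778 and 4.50 CPM under vehicle and 0.346 and 753 CPM after TCS. Sex makeup was therefore also uneven between the genotypes within each treatment. The summed level of 7 pancreatic acinar markers was 5.07, 38.4, 11.7 and 8.14 CPM in the vehicle-treated libraries and 49.9, 34.3, 91.3 and 84.1 CPM in the TCS-treated ones, and 7 of 7 were above 0 in the log2 change averaged over genotypes. In that average edgeR called *Cela2a* (1.93, SE 0.35, edgeR adjusted P = 0.0275) and *Pnlip* (4.05, SE 0.82, edgeR adjusted P = 0.0402), and DESeq2 also called *Cpa1*. *Pnlip* was listed at 0 counts in 1 library. Between the genotypes these markers had a median of -1.26 under vehicle (6 of 7 below 0) and 1.08 under TCS (7 of 7 above 0). Their median in the interaction was 2.51 (7 of 7 above 0). Neither edgeR nor DESeq2 called any of them in these 3 comparisons. The summed level of 7 neutrophil markers was 25.7 to 33.8 CPM with vehicle and 12.3 to 26.7 CPM after TCS. Markers of other cells had mostly lower values with TCS averaged over genotypes, with 0 of those below called by edgeR. Kupffer cell and macrophage markers were below 0 in 7 of 7 (median -0.29, *Csf1r* called by DESeq2). The same held for 6 of 7 of stellate cells (median -0.15, *Reln* called by DESeq2) and 5 of 6 of liver endothelium (median -0.18, *Stab2* called by DESeq2). It also held for 4 of 4 erythroid (median -0.43), 4 of 5 cholangiocyte (median -0.37) and 5 of 6 lymphocyte markers (median -0.07). The part of these cells in the values of *Trib3*, *Ddit3* and the other low regulators was not tested.

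**Figure D5:**
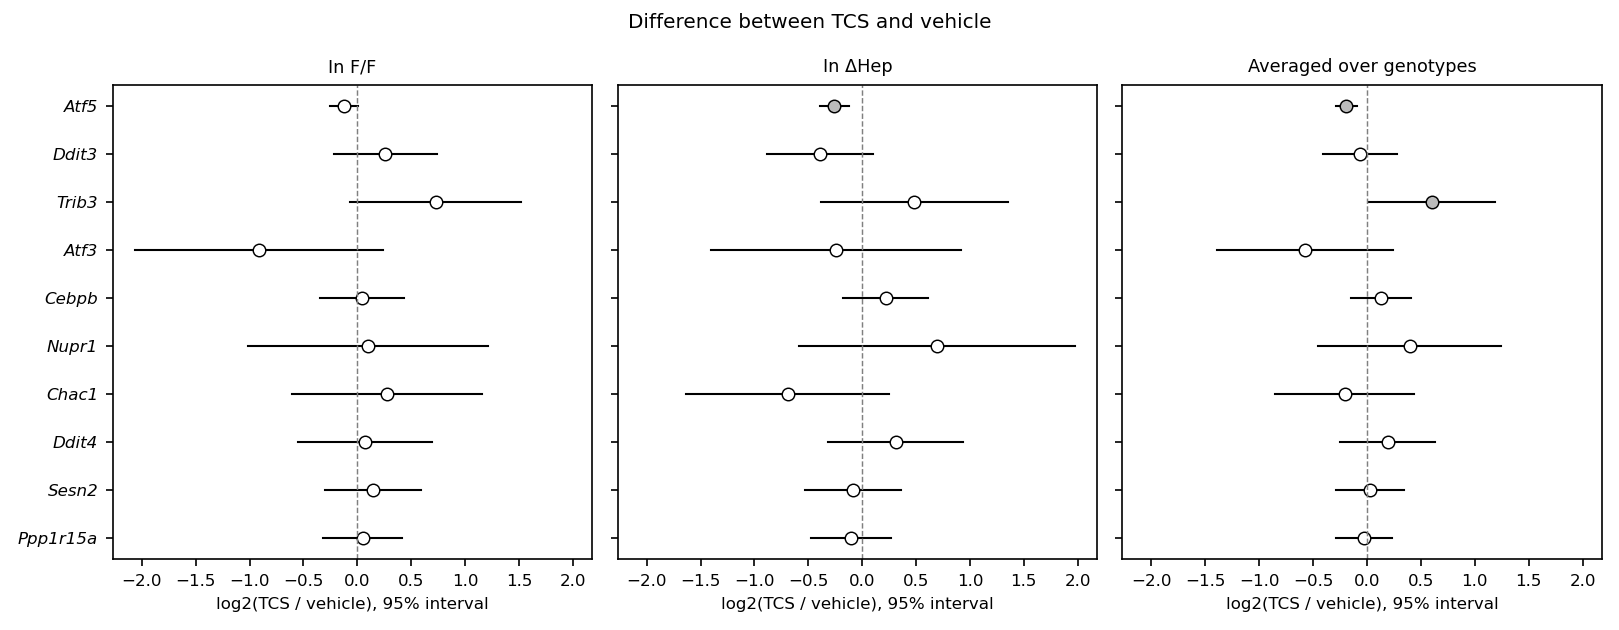
Log2 fold change of each regulator between TCS and vehicle in *Atf4F/F* livers, in *Atf4ΔHep* livers and averaged over both genotypes (x axes), with 95% intervals. Grey points have an unadjusted P under 0.05, white points a larger P, and no point has an edgeR adjusted P under 0.05. *Trib3* is highest in *Atf4F/F* (0.73), *Ddit3* has values of 0.26 and -0.39 in the 2 genotypes, neither past the test, and *Atf5* is below 0 in every panel.

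Across the 8 libraries, the log2 level of *Atf5* ran with that of *Atf4* (Pearson's r = 0.89), and that of *Ddit3* with that of *Chac1* (r = 0.78). *Nupr1* had r = 0.67 with *Atf4* and -0.72 with *Sesn2*. These values describe 8 points that share genotype and treatment in pairs, and carry no test. Among all genes tested, the 2 whose pattern was most like that of a regulator had r of 0.90 to 0.99, and none was itself a regulator. They were *Vstm4* and *Zfp35* for *Atf5*, *Zfp960* and *Anxa2* for *Ddit3*, *Ighmbp2* and *Naa30* for *Atf3*, *Atpaf2* and *Sh3pxd2a* for *Cebpb*, and *Zfp276* and *Sema3c* for *Nupr1*. For the feedback and effector genes they were *Gltscr1l* and *Cd82* (*Trib3*), *Rfc1* and *Dync2li1* (*Ppp1r15a*), *Paxip1* and *Slc25a28* (*Chac1*), *Golga3* and *Spc24* (*Ddit4*), and *Cdkn1c* and *Kif2c* (*Sesn2*). With 13633 genes and 8 libraries, likeness of this size was found for every regulator.

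Upstream of the regulators, 17 genes of eIF2 and its control were tested, among them the kinase genes *Eif2ak1* to *Eif2ak4*. With the deletion averaged over treatments edgeR and DESeq2 called 0 of 17, 2 were lower at an unadjusted P under 0.05, and the median log2 difference was 0.00. The lower genes were *Eif2s2*, the β subunit of eIF2, at -0.17 (SE 0.06), and *Ppp1r15b*, the constitutive counterpart of *Ppp1r15a*, at -0.13 (SE 0.05). *Eif2b4*, a subunit of the exchange factor of eIF2, had a value of 0.13 (SE 0.06, unadjusted P = 0.0696).
With TCS averaged over genotypes edgeR again called 0, and 2 were higher at an unadjusted P under 0.05. *Eif2s3x*, the X-linked γ subunit, had a value of 0.34 (SE 0.09, edgeR adjusted P = 0.0997) and was called by DESeq2, in pools whose sex makeup differed as described above. The kinase genes *Eif2ak1* and *Eif2ak4* had values of 0.14 (SE 0.04, unadjusted P = 0.0113) and -0.17 (SE 0.08, unadjusted P = 0.0753).

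Of 17 other bZIP genes, which include partners of ATF4, edgeR called 0 in either averaged comparison. With the deletion, 2 were higher and 1 lower at an unadjusted P under 0.05, namely *Jund* (0.20, SE 0.06) and *Atf1* (0.16, SE 0.07) higher and *Cebpd*, a C/EBP factor, lower (-0.33, SE 0.12), and DESeq2 called 0. With TCS, *Nfe2l1*, which activates proteasome genes, had a value of 0.26 (SE 0.06, edgeR adjusted P = 0.0570, called by DESeq2). *Cebpg*, a partner of ATF4 in amino acid genes, had a value of -0.20 (SE 0.05, edgeR adjusted P = 0.0620), and *Jund* had -0.12 (SE 0.06).

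The metabolic and transport genes that ATF4 is known to activate were a list of 32, of which 31 were tested. With the deletion averaged over treatments edgeR called 0, whereas 8 were lower and 1 higher at an unadjusted P under 0.05, and the median log2 difference was -0.12. Of all genes tested, 2.07% were lower at that level. *Asns*, asparagine synthetase, had group means of 5.13 and 4.53 CPM in *Atf4F/F* livers and of 2.08 and 1.53 CPM in *Atf4ΔHep* livers (log2 difference -1.44, SE 0.23, edgeR adjusted P = 0.206), and was called by DESeq2. *Psat1*, of serine synthesis, had a value of -0.58 (SE 0.11, unadjusted P = 0.0007) and *Cars*, a tRNA synthetase gene, had -0.51 (SE 0.10, unadjusted P = 0.0007). *Gdf15*, of the same list, was higher in *Atf4ΔHep* livers, though neither edgeR nor DESeq2 called it between the genotypes. It had 4.30 and 3.37 CPM under vehicle, against 2.69 and 2.76 CPM in *Atf4F/F* livers. After TCS it had 7.70 and 9.63 CPM, against 5.31 and 6.12 CPM.
With TCS averaged over genotypes edgeR called 2 higher and DESeq2 called 4 higher (*Gdf15*, *Shmt2*, *Sqstm1* and *Vldlr*) and 1 lower (*Slc1a4*), against 2.59% and 3.37% of all genes. *Gdf15*, a stress hormone, rose by 1.13 (SE 0.15, edgeR adjusted P = 0.0057), and by 1.18 in *Atf4ΔHep* livers alone (SE 0.20, edgeR adjusted P = 0.0443). *Vldlr*, a lipoprotein receptor, rose by 0.42 (SE 0.08, edgeR adjusted P = 0.0307), and the autophagy receptor gene *Sqstm1* had a value of 0.24 (SE 0.05, edgeR adjusted P = 0.0537).

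The other branches of the response to unfolded protein were read from 18 target genes of ATF6 and XBP1. EdgeR and DESeq2 called 0 of 18 in either averaged comparison, with 1 lower at an unadjusted P under 0.05 for the deletion and 0 for TCS. The gene lower with the deletion was *Herpud1*, of protein degradation at the endoplasmic reticulum (-0.18, SE 0.06). Their median difference between genotypes was 0.11 under vehicle, with 16 of 18 above 0, and -0.05 under TCS, with 16 of 18 below 0, where 50.6% and 49.8% of all genes were below 0. The summed level of the list overlapped between the genotypes under vehicle, at 4003 and 3535 CPM in *Atf4F/F* and 4337 and 3687 CPM in *Atf4ΔHep* livers. None of the 18 was called in the interaction by edgeR or DESeq2, and 2 were below 0 at an unadjusted P under 0.05.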

How the data were processed

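Liver RNA was sequenced in 8 libraries made with a kit that marks strand. Of the read processing, the submitters list bcl2fastq 2.20, STAR 2.7.9a and mm10. The counting program, its annotation and its strand setting are not stated in the sources. Raw counts per gene symbol were used as deposited by the authors. A deposited table of scaled counts and 3 tables of the authors' own comparisons (fold changes and P values) were not used.

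Differences were fitted with edgeR 4.0.16 (R 4.3.3). The filter filterByExpr (count minimum 10, total count minimum 15) kept 13633 of 24411 genes, and 6184 genes had no count. After TMM scaling, a quasi-likelihood model with 1 mean per group was fitted to all 8 libraries (4 residual degrees of freedom, common dispersion 0.0142). P values were adjusted over all tested genes (Benjamini-Hochberg), with a call at an adjusted P under 0.05. Standard errors were derived from the log2 fold changes and their F statistics, and intervals are at 95%. Alternatives were DESeq2 1.42.0, RLE factors, no filter, the libraries of a comparison alone, a replicate block, the male share of each pool (Y-linked CPM) as a covariate and each library left out. The procedure was tested on simulated data.

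Libraries of 1 group differed beyond sampling noise (chi-square per gene 7.83 to 17.7), so each was kept as a sample. Positions and exon lengths came from GENCODE M21 (GRCm38) by symbol. *Ddit3* has 2 gene entries there, and the one that RefSeq names was used. Exon length is the union of all exons. Likeness was Pearson's r of log2 CPM with a prior count of 2. Genes outside the regulators were named if called in a comparison, and otherwise up to 3 per list with the smallest unadjusted P in each averaged comparison. The regulators and the lists were chosen with earlier results of these data known. Figures were drawn in Python 3.11.15 with matplotlib 3.10.9.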

Additional observations from a re-analysis of the deposited data

Results flagged for a closer look

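*Ddit3* was set apart because every TCS library moved one way in *Atf4F/F* livers and the other way in *Atf4ΔHep* livers. With TCS its level was 5.56 and 4.98 CPM against 4.82 and 3.94 CPM with vehicle in *Atf4F/F* livers, and 3.89 and 3.22 CPM against 5.05 and 4.17 CPM in *Atf4ΔHep* livers. The difference between the effects was -0.65 on the log2 scale (SE 0.30), with an unadjusted P of 0.0602 and an adjusted P of 1.00 from edgeR, so that it did not pass the test. It was -0.50 to -0.81 when each library was left out in turn, and -0.65 with the male share of the pools as a covariate (SE 0.43). The gene had 45 to 95 counts per library.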

How the results depend on the processing

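Of 1020 values of the regulators under an alternative, 935 kept their direction and their side of the threshold, and 67 changed sign, 62 of them when 1 library was left out. None of those that changed sign had been called. The called fall of *Atf5* with the deletion averaged over treatments was lost under the replicate block (adjusted P = 0.0965), with the male share of the pools as a covariate and without any 1 library, each of which left 0 regulators called in that comparison. *Atf5* was instead called in more comparisons, 1 regulator each, by DESeq2 (TCS averaged, TCS in *Atf4ΔHep* and deletion under TCS), without a filter (TCS averaged and deletion under TCS) and under a crossed block (the same 3 as DESeq2).

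Genes called over the whole table moved as follows. DESeq2 called 177 and 230 for TCS in *Atf4F/F* and *Atf4ΔHep*, against 76 and 92, and 12, 7 and 5 for the deletion averaged, under TCS and under vehicle, against 6, 3 and 3. Without a filter the calls were 538 for TCS averaged, against 353, 139 and 200 in the 2 genotypes, and 5 for the deletion under TCS and 9 averaged. The libraries of a comparison alone gave 33 for TCS in *Atf4F/F* and 189 in *Atf4ΔHep*. The male share of the pools as a covariate gave 111 for TCS averaged, 20 for TCS in *Atf4F/F*, 5 for the deletion under vehicle and 1 for the interaction, against 0. With each library left out the ranges were 107 to 363 (TCS averaged), 33 to 165 (TCS in *Atf4F/F*), 11 to 107 (TCS in *Atf4ΔHep*), 3 to 4 (deletion averaged) and 2 to 31 (deletion under TCS), the last without TCS-treated *Atf4F/F* library 1.

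The replicate numbers did not pair the libraries over all 4 groups. Correlations of their deviations from the group means were 0.34 (vehicle) and 0.37 (TCS) between the genotypes, and -0.43 to -0.11 between groups of unlike treatment. As a block the replicate numbers left 3 genes called for the deletion averaged, 64 and 72 for TCS in the 2 genotypes and 249 for TCS averaged. A crossed pairing, chosen after seeing the data, gave 861 for TCS averaged, 214 and 331 in the 2 genotypes, and 15 for the deletion averaged and 15 under TCS.

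Signs that changed with the male share of the pools as a covariate were those of *Nupr1* (-0.997) and *Cebpb* (-0.25) for TCS in *Atf4F/F*, of *Nupr1* (-0.12) and *Cebpb* (-0.0059) for TCS averaged, and of *Chac1* (-0.012) for the deletion under vehicle. Log2 ranges that crossed 0 when a library was left out follow. For TCS in *Atf4F/F* they were -0.31 to 0.38 for *Ddit4*, -0.16 to 0.40 for *Sesn2*, -0.35 to 0.76 for *Nupr1*, -0.19 to 0.31 for *Ppp1r15a* and -0.18 to 0.30 for *Cebpb*. For TCS in *Atf4ΔHep* they were -0.13 to 1.01 for *Trib3*, -0.73 to 0.46 for *Atf3* and -0.19 to 0.034 for *Sesn2*. For TCS averaged they were -0.13 to 0.014 for *Ddit3*, -0.42 to 0.017 for *Chac1*, -0.12 to 0.16 for *Sesn2* and -0.14 to 0.10 for *Ppp1r15a*. For the deletion under vehicle they were -0.074 to 0.23 for *Ddit3*, -1.10 to 0.10 for *Atf3*, -0.42 to 0.36 for *Chac1*, -0.17 to 0.32 for *Ppp1r15a* and -0.35 to 0.13 for *Cebpb*. For the deletion under TCS they were -0.12 to 0.64 for *Atf3*, -0.25 to 0.44 for *Ddit4*, -0.29 to 0.27 for *Sesn2* and -0.14 to 0.19 for *Cebpb*. For the deletion averaged they were -0.41 to 0.19 for *Atf3*, -0.21 to 0.13 for *Ddit4*, -0.049 to 0.23 for *Sesn2*, -0.13 to 0.12 for *Ppp1r15a* and -0.15 to 0.086 for *Cebpb*. For the interaction they were -0.86 to 0.29 for *Trib3*, -0.068 to 0.62 for *Ddit4*, -0.48 to 0.075 for *Sesn2*, -0.074 to 1.18 for *Nupr1*, -0.41 to 0.086 for *Ppp1r15a* and -0.080 to 0.40 for *Cebpb*. The cause of these changes was not tested. With 2 libraries per group and fewer than 100 counts per library for *Ddit3*, *Trib3*, *Atf3*, *Chac1* and *Nupr1*, only large differences in these genes were detectable.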

Other observations

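Among lists that bear on single regulators, 12 glucocorticoid targets of liver, a program to which *Ddit4* also belongs, held 3 genes called with TCS averaged over genotypes, where 2.59% of all genes were called. The metallothionein genes *Mt1* and *Mt2* rose by 0.66 (SE 0.10, edgeR adjusted P = 0.0100) and 0.77 (SE 0.12, edgeR adjusted P = 0.0162), and *Lcn2*, an acute phase gene, fell by 0.65 (SE 0.13, edgeR adjusted P = 0.0402), with a fall by 1.13 in *Atf4ΔHep* livers alone (SE 0.18, edgeR adjusted P = 0.0376). The group means of *Lcn2* were 26.5 CPM with vehicle and 23.5 CPM after TCS in *Atf4F/F* livers, and 47.1 and 21.5 CPM in *Atf4ΔHep* livers. The remaining 9 genes of the list were not called. With the deletion averaged over treatments edgeR and DESeq2 called 0 of 12, and *Lcn2* alone had an unadjusted P under 0.05, at 0.35 (SE 0.13). For the deletion under vehicle DESeq2 called *Lcn2* higher, and edgeR called 0 of 12. The summed level of the list ranged from 2691 to 5173 CPM, with both extremes in vehicle-treated livers.

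Of 16 immediate early genes, the group to which *Atf3* is close, edgeR and DESeq2 called 0 in either averaged comparison. At an unadjusted P under 0.05, 1 was lower with the deletion, the zinc finger gene *Klf4* (-0.45, SE 0.18), and 1 was lower with TCS, *Btg2*, which restrains proliferation (-0.26, SE 0.11).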
